A study of Mus musculus with 3 samples.

Results

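Matrix metalloproteinases (MMPs) are zinc-dependent endopeptidases that cut the proteins of the extracellular matrix, and 10 genes of this family, *Mmp2*, *Mmp3*, *Mmp9*, *Mmp10*, *Mmp11*, *Mmp12*, *Mmp13*, *Mmp14*, *Mmp19* and *Mmp23*, were followed over 3 murine colon cancer cell lines. The genes were taken by name, through the RefSeq accession of each array probe, and all 10 were found among the 22911 genes that the probes could be named for. Colon26 is a colon adenocarcinoma line, LuM1 is its high-metastatic subline and NM11 its low-metastatic subline. All came from female BALB/c mice by the labels, which name no engineered allele and no treatment, and were grown for 3 days in RPMI1640 medium with serum and antibiotics. Total RNA (0.1 µg) of each line was labelled with Cy3 and hybridized to 1 single-colour array, so each line had 1 array and no difference below had a replicate check or a test.

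MMPs are made as inactive proenzymes, in which a cysteine of the propeptide blocks the zinc, and they are activated when the propeptide is cut off, often by plasmin or by another MMP. Tissue inhibitors of metalloproteinases (TIMPs) bind the active site and hold the enzymes in check. Many of the genes are kept low in resting cells and are induced through AP-1 and ETS factors that bind near the start site. In tumours of the colon, MMPs are made by the cancer cells as well as by the fibroblasts and macrophages around them, and they are known for opening the matrix to invading cells.

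Every value below is the brightness of a probe after background subtraction, scaled so that the 75th percentile of each array was 585.1, and the ± is the scanner software's error for that spot, which leaves out any spread between cultures. Between 49.9 and 53.8% of the probes of an array passed the scanner software's call of well above background, and none was saturated. Where a probe was not well above background, its gene has only a bound in that line, set by the higher of its own signal and that of the dimmest probe that was (26.4 in Colon26 cells, 20.1 in LuM1 cells and 19.6 in NM11 cells), and the ratio is given as at least so many fold. Levels of different probes were not set against each other. A difference of at least 2-fold was counted. In RNA of a whole culture, fewer cells that express a gene and less RNA per cell cannot be told apart.

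The labelled origin was compared with marker genes. Of 10 markers of colon epithelium, 4 were well above background in Colon26 cells, 5 in LuM1 cells and 4 in NM11 cells, and *Cdh1*, *Krt18*, *Krt19*, *Vil1* and *Cdx1* were well above background in no line. *Epcam* was well above background only in LuM1 cells, at 28.0. *Krt20*, *Cdx2*, *Lgals4* and *Krt8* were well above background in every line, on the brightest probe of each. *Krt20* read 651.4, 54.5 and 157.3 in Colon26, LuM1 and NM11 cells, and *Cdx2* read 443.0, 231.7 and 167.2 in the same order. *Lgals4* read 197.9, 71.7 and 68.2, and *Krt8* read 28.9, 107.6 and 37.1. The summed signal of the list ranged from 429.9 in NM11 cells to 1321 in Colon26 cells. This sum hides opposite directions, as *Krt8* was 3.72-fold higher and *Krt20* 11.9-fold lower in LuM1 than Colon26 cells. Of 6 fibroblast markers, 4, 5 and 5 were well above background in Colon26, LuM1 and NM11 cells, with summed signals of 66026, 34731 and 103153, and *Lum* was in none. These sums, which describe the list and compare no genes, hide opposite directions. In the same order of lines *Col1a2* read 59896, 49.6 and 85275, whereas *Pdgfra* read 218.0, 3965 and 1286 and *Dcn* read 6.07 (below the detection call), 27503 and 9599. Of 6 macrophage markers, 3, 4 and 3 were, with summed signals of 5881, 12871 and 5225. The leukocyte gene *Ptprc* and the macrophage gene *Adgre1* were well above background in no line, whereas *Cd68* was 172.3, 5251 and 299.2 in the same order. *Lyz2* was well above background only in LuM1 cells, at 112.0, at least 4.24-fold over Colon26 and at least 5.72-fold over NM11 cells. *Csf1r* and *Itgam* passed 2-fold in no pair on their brighter probes. Of 4 endothelial markers, only *Pecam1* was well above background. The part of these differences in the MMP values was not tested.

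RefSeq promoter windows (GRCm38.p6, from 250 bases before to 50 bases after an annotated start site) were on hand for 7 of the 10 genes, with 9 windows in all. The windows were searched for AP-1 letters (TGAGTCA, both strands), ETS letters (AGGAAG, both strands) and a TATA box (TATAAA, given strand). The AP-1 letters stood in 4 of the 9 windows, those of *Mmp3*, *Mmp10*, *Mmp13* and the second start site of *Mmp12*, and in 5.2% of the 32851 windows of all genes. The same 4 windows held the TATA letters, which 8.32% of all windows held. The ETS letters stood in 4 of the 9 windows (*Mmp3*, *Mmp13* with 2 matches, the first start site of *Mmp12*, and *Mmp14*) and in 35.4% of all windows. These letters are a description of the sequence, not of binding.

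The 250 bases before the start site are shown for the 3 genes with AP-1 letters that were higher in both sublines, for *Mmp12*, whose second start site holds the same letters although the gene was not well above background in any line, and for *Mmp14*, which passed 2-fold in no pair of lines. They are written 5′ to 3′ on the strand of the gene, and capitals mark matches to the motifs searched (on either strand for AP-1 and ETS).
Mmp3: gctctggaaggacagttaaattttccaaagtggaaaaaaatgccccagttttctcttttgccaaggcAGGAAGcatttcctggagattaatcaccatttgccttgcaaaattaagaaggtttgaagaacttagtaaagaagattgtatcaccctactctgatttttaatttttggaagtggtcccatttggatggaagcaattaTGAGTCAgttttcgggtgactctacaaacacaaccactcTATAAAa
Mmp10: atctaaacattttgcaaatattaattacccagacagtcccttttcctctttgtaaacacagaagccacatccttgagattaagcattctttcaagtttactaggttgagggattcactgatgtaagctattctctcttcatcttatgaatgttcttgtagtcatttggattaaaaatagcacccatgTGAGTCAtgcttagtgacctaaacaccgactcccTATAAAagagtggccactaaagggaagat
Mmp13: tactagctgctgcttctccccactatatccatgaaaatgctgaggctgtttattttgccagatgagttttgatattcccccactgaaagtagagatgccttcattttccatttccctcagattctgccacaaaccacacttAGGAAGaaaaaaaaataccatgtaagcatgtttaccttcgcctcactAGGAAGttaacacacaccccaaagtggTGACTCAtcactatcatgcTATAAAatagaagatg
Mmp12: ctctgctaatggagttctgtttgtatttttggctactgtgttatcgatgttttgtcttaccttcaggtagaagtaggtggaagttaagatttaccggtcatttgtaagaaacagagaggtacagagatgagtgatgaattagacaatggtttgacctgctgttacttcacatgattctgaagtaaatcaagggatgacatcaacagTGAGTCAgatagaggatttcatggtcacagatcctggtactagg
Mmp14: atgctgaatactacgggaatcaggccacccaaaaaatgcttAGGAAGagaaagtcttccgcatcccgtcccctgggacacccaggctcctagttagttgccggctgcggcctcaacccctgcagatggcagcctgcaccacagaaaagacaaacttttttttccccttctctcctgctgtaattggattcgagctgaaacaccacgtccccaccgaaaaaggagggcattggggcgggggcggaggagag
In GRCm38.p6 these lie at chr9:7445572-7445821 for *Mmp3*, chr9:7502092-7502341 for *Mmp10*, chr9:7272264-7272513 for *Mmp13*, chr9:7347124-7347373 for *Mmp12* and chr14:54431348-54431597 for *Mmp14*, all on the plus strand.

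The AP-1 letters lay from 46 to 40 bases before the start site in *Mmp3*, from 63 to 57 bases before it in *Mmp10* and from 35 to 29 bases before it, on the reverse strand, in *Mmp13*. At the second start site of *Mmp12* they lay from 44 to 38 bases before it, and the TATA letters of that window began 5 bases after the annotated start, outside the bases shown. In *Mmp14* the ETS letters lay from 209 to 204 bases before the start site. The windows of *Mmp11* and *Mmp23* held none of the 3 motifs. No window was on hand for *Mmp2*, *Mmp9* and *Mmp19*.

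**Figure D1:**
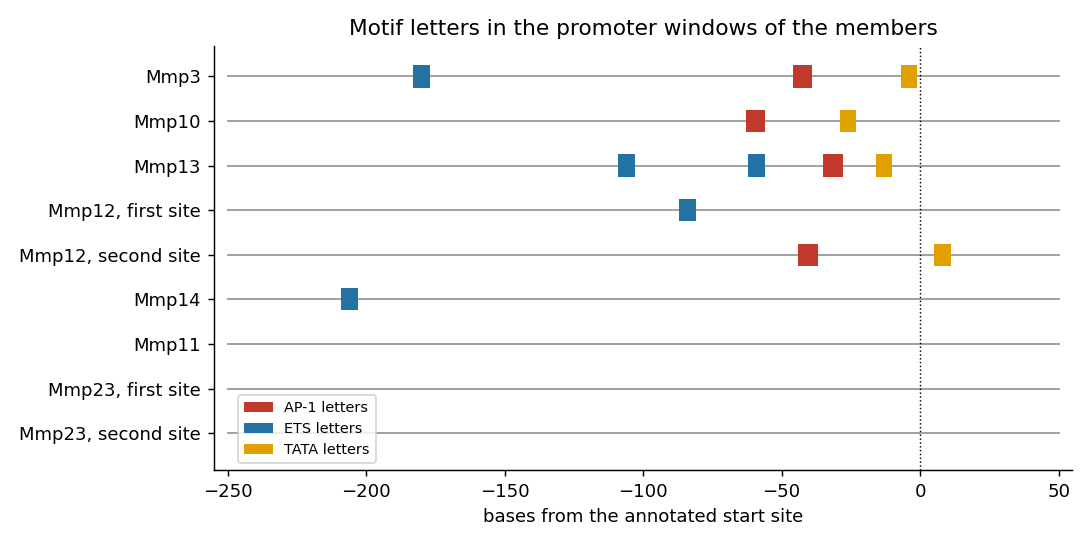
Position of motif letters in the promoter windows of 7 MMP genes. The horizontal axis gives bases from the annotated start site (dotted line), each grey line is 1 window, and coloured blocks are matches of the AP-1, ETS and TATA letters on the strands searched. AP-1 blocks stand within 63 bases before the start site in the 4 windows that hold them.

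The stromelysins *Mmp3* and *Mmp10* were higher in both sublines than in Colon26 cells, and higher in LuM1 than NM11 cells. *Mmp3* encodes stromelysin-1, which degrades proteoglycans, laminin and fibronectin and activates other MMP proenzymes. Its signal was 58.6 ± 8.24 in Colon26 cells, 103171 ± 10317 in LuM1 cells and 29944 ± 2994 in NM11 cells. Colon26 cells were thus low but above background, and both sublines were bright. The *Mmp3* mRNA level in LuM1 cells was 1762-fold that in Colon26 cells (log2 ratio 10.78, scanner error 0.25), the 2nd highest ratio of 12394 genes well above background on both arrays. It was 511.3-fold higher in NM11 cells than in Colon26 cells (log2 ratio 8.998, scanner error 0.25), the highest ratio of 12469 such genes. Between the sublines, *Mmp3* was 3.45-fold higher in LuM1 cells (log2 ratio 1.78, scanner error 0.20), a ratio that 418 of 12848 genes reached. With another background correction (normexp), the log2 ratios over Colon26 were 9.59 for LuM1 and 7.79 for NM11 cells.

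*Mmp10* encodes stromelysin-2, a close relative of stromelysin-1 that lies near it on chromosome 9. Its signal was 50.7 ± 7.55 in Colon26 cells, 2708 ± 271 in LuM1 cells and 368.5 ± 37.1 in NM11 cells. The order of the lines was that of *Mmp3*, with a wider gap between the sublines. *Mmp10* was 53.4-fold higher in LuM1 than Colon26 cells (log2 ratio 5.74, scanner error 0.26) and 7.27-fold higher in NM11 than Colon26 cells (2.86, scanner error 0.26). It was 7.35-fold higher in LuM1 than NM11 cells (2.88, scanner error 0.20). With the normexp correction the log2 ratios over Colon26 were 4.52 and 1.79.

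*Mmp11* encodes stromelysin-3, which furin activates inside the cell and which cuts few matrix proteins. Its signal was 1699 ± 170 in Colon26 cells, 2701 ± 270 in LuM1 cells and 2080 ± 208 in NM11 cells. All 3 lines were well above background, and no pair reached 2-fold. The log2 ratio was 0.67 for LuM1 over Colon26 and 0.38 for LuM1 over NM11, each with a scanner error of 0.20. The log2 ratio of 0.29 for NM11 over Colon26 was of the size of its scanner error of 0.20, and it turned negative with scaling to *Hprt* or to the spike-in controls. In the processed values that the authors deposited, *Mmp11* passed 2-fold in LuM1 over Colon26 cells (log2 ratio 1.12).

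The collagenase *Mmp13* was not well above background in Colon26 cells and was bright in both sublines. *Mmp13* encodes collagenase-3, which cuts the triple helix of fibrillar collagens. Its signal was 27.0 ± 6.37 in Colon26 cells, below the detection call, 6283 ± 628 in LuM1 cells and 1609 ± 161 in NM11 cells. It was at least 232.7-fold higher in LuM1 and at least 59.6-fold higher in NM11 cells than in Colon26 cells. LuM1 cells had 3.90-fold more than NM11 cells (log2 ratio 1.97, scanner error 0.20), beside 3.45-fold for *Mmp3*, and both fell short of 4-fold. Both passed 4-fold with quantile normalization, in the authors' processed values and with scaling to *Hprt* or the spike-in controls. With *Hprt* the log2 ratios were 2.55 for *Mmp13* and 2.37 for *Mmp3*. *Mmp13* also passed it without scaling (2.15) and with the 75th percentile over probes on all arrays (2.13). With the normexp correction the log2 bounds over Colon26 were 6.06 and 4.09.

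The gelatinases, which degrade denatured collagen and type IV collagen of basement membranes, differed in pattern. *Mmp2* encodes gelatinase A, which the membrane-bound product of *Mmp14* activates together with TIMP2. Its signal was 5.81 ± 5.85 in Colon26 cells, which is no signal above background, 1512 ± 151 in LuM1 cells and 1691 ± 169 in NM11 cells. It was at least 57.3-fold higher in LuM1 and at least 64.0-fold higher in NM11 cells than in Colon26 cells. The sublines lay within scanner error of each other (log2 ratio -0.16, scanner error 0.20, for LuM1 over NM11), and this ratio had the same sign under 7 of 12 alternative settings. With the normexp correction the log2 bounds over Colon26 were 4.27 and 4.41.

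*Mmp9* encodes gelatinase B and was bright in LuM1 cells alone. On the brighter of its 2 probes the signal was 11.3 ± 6.12 in Colon26 cells, not above the detection call, 2311 ± 231 in LuM1 cells and 24.7 ± 4.97 in NM11 cells. On the other probe it was 5.92 ± 5.94, 2226 ± 223 and 12.5 ± 4.43, and only LuM1 cells passed the detection call. Both probes thus put LuM1 cells far above both other lines, which lay at or near background. *Mmp9* was at least 87.5-fold higher in LuM1 than Colon26 cells on the first probe and at least 84.3-fold higher on the second. Over NM11 cells it was 93.7-fold higher on the first probe (log2 ratio 6.55, scanner error 0.32), the 5th highest ratio of 12848 genes, and at least 113.7-fold higher on the second. No ratio could be given for NM11 over Colon26 cells. With the normexp correction the log2 ratio of LuM1 over NM11 was 4.56 and the log2 bound over Colon26 was 4.80.

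*Mmp14* encodes the membrane-type MMP that activates gelatinase A at the cell surface and cuts collagen itself. Its signal was 398.8 ± 40.4 in Colon26 cells, 626.7 ± 62.9 in LuM1 cells and 385.8 ± 38.9 in NM11 cells. LuM1 cells were highest, at 1.57-fold over Colon26 (log2 ratio 0.65, scanner error 0.21) and 1.62-fold over NM11 cells (0.70, scanner error 0.21), both short of 2-fold. NM11 and Colon26 cells lay within scanner error (log2 ratio -0.05, scanner error 0.21), with a sign that turned under the normexp correction. *Mmp14* passed 2-fold in LuM1 over NM11 cells in the authors' processed values and with scaling to *Hprt* or to the spike-in controls, and in LuM1 over Colon26 cells in the authors' processed values (log2 ratio 1.099).

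*Mmp19* encodes an MMP that cuts proteins of the basement membrane and was higher in both sublines to a like degree. On the brighter of its 2 probes the signal was 502.6 ± 50.6 in Colon26 cells, 5397 ± 540 in LuM1 cells and 4675 ± 467 in NM11 cells. On the dimmer probe it was 15.5 ± 5.88, below the detection call, 118.2 ± 12.6 and 93.4 ± 10.2. The 2 sublines stood together above Colon26 cells on both probes. The brighter probe was 10.7-fold higher in LuM1 (log2 ratio 3.42, scanner error 0.20) and 9.30-fold higher in NM11 cells (3.22, scanner error 0.20) than in Colon26 cells, whereas the sublines lay within about 1 scanner error of each other (0.21, scanner error 0.20). Over the alternatives run, the log2 ratio of *Mmp19* between the sublines ranged from 0.16 to 0.80 (with scaling to *Hprt*), short of 2-fold. The dimmer probe gave bounds of at least 4.48-fold and at least 3.54-fold.

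*Mmp12* and *Mmp23* were at or near background. *Mmp12* encodes the elastase of macrophages, and none of its 3 probes was well above background in any line. The highest of its 9 values was 18.0 ± 5.15 in LuM1 cells, on 1 of the 3 probes, where the scanner software called it significantly but not well above background. The same probe read 6.12 ± 6.16 in Colon26 and 4.52 ± 4.53 in NM11 cells. With the looser detection call, *Mmp12* passed 2-fold in LuM1 over both other lines. *Mmp23* encodes a membrane-anchored MMP that lacks the usual cysteine switch. Its signal was 20.1 ± 5.97 in Colon26 cells, 16.3 ± 4.61 in LuM1 cells and 21.3 ± 4.61 in NM11 cells, and only the last was well above background. The 3 values lay within their combined scanner errors.

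**Figure D2:**
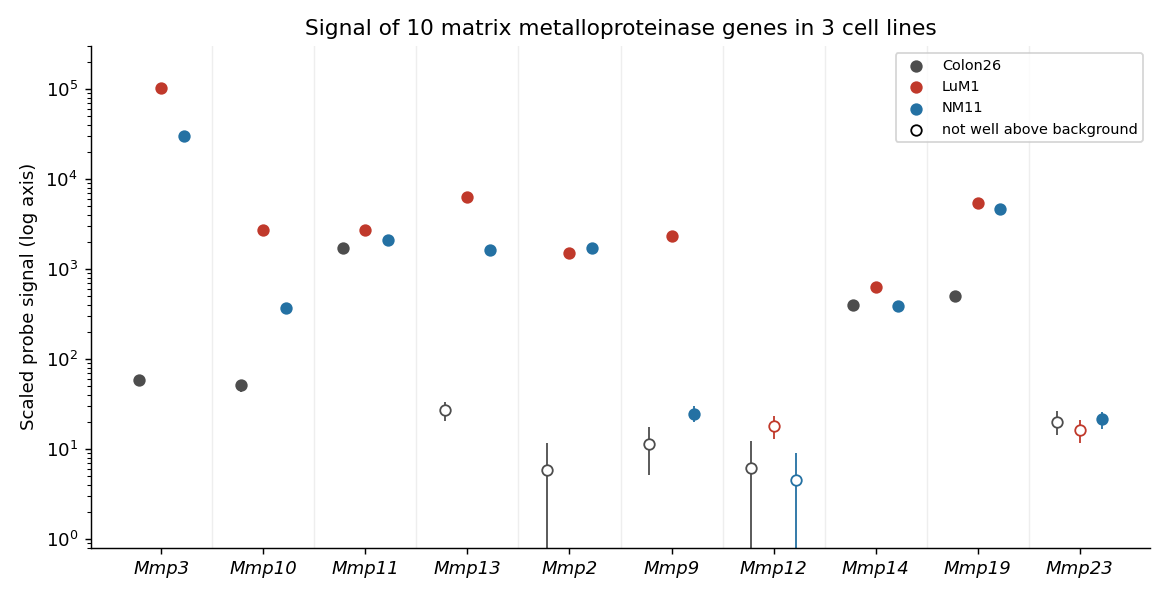
Scaled probe signal (vertical log axis, no unit) of the 10 MMP genes in Colon26 (grey), LuM1 (red) and NM11 (blue) cells, 1 array each, for the brightest probe of each gene. Bars are the scanner software's error, hidden where smaller than the point, and open points were not well above background. *Mmp3*, *Mmp10* and *Mmp13* run from Colon26 over NM11 to LuM1, *Mmp2* and *Mmp19* are alike in the sublines, and *Mmp9* stands out in LuM1 at 2311.

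Counted over the family, 6 of the 10 genes passed 2-fold upwards from Colon26 to LuM1 cells (*Mmp2*, *Mmp3*, *Mmp9*, *Mmp10*, *Mmp13* and *Mmp19*), where 8 were well above background in at least 1 of both lines. Of all 14350 genes above background in at least 1 of both, 12.9% were at least 2-fold higher. None of the 10 was at least 2-fold lower, against 11.7% of all genes. Only genes well above background in Colon26 cells, 5 of the 10, could be counted as lower than there in either subline. Between NM11 and Colon26 cells, 5 of the 10 were at least 2-fold higher in NM11 cells (the same but for *Mmp9*), against 8.17% of 14107 genes, and none was lower, against 7.74%. Between the sublines, 4 of the 10 passed 2-fold upwards in LuM1 cells (*Mmp3*, *Mmp9*, *Mmp10* and *Mmp13*), against 11.1% of 14412 genes, and none was at least 2-fold lower, against 8.5%. In each comparison with NM11 cells, 9 of the 10 were well above background in at least 1 of both lines. The 10 genes were chosen with earlier results of these data known, so the shares are a description. The comparisons over Colon26 share the Colon26 array, and those of LuM1 the LuM1 array.

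The same 5 genes were at least 2-fold higher in both sublines than in Colon26 cells (*Mmp2*, *Mmp3*, *Mmp10*, *Mmp13* and *Mmp19*), beside 4.53% of 14828 genes above background in any line. *Mmp3*, *Mmp9*, *Mmp10* and *Mmp13* exceeded 2-fold in LuM1 cells against each of the other lines, beside 7.33% of those genes. Over the 8 genes with a ratio or a bound the log2 ratio of LuM1 over Colon26 had a median of 5.79, with bounds taken at their value, beside -0.10 over all genes. The same median was 3.22 over 7 genes for NM11 over Colon26, beside -0.01, and 0.70 over 9 genes for LuM1 over NM11, beside -0.09.

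**Figure D3:**
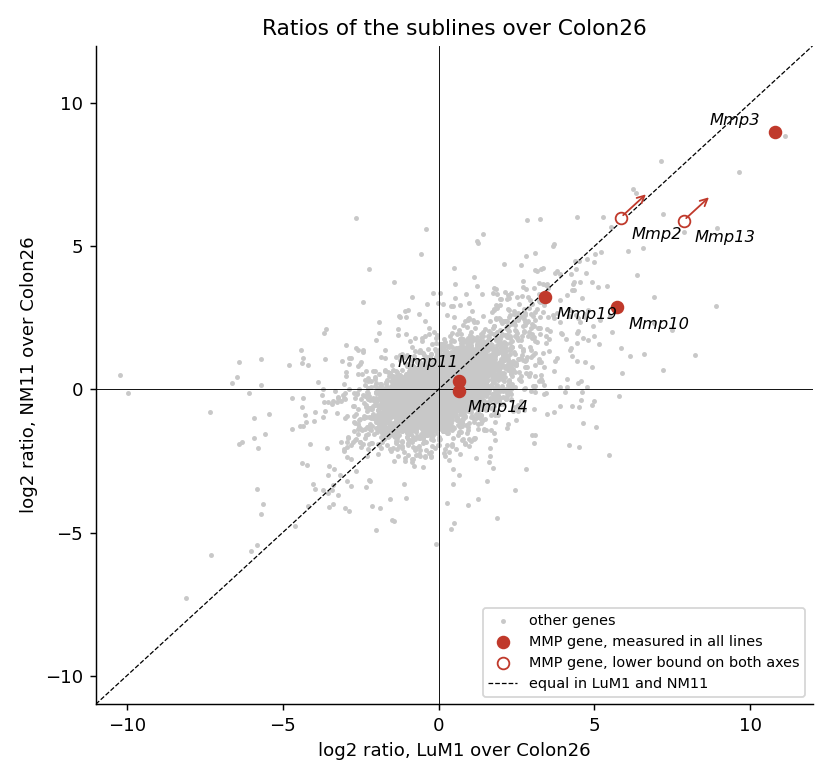
Log2 ratio of LuM1 over Colon26 (horizontal axis) against that of NM11 over Colon26 (vertical axis). Grey points are the 12245 genes that passed the detection call in every line, filled red points are MMP genes measured in all lines, and open red points with arrows are genes that have only a lower bound on both axes. *Mmp3* lies at 10.78 and 8.998 at the upper right edge of all genes, and *Mmp11* and *Mmp14* lie near 0. *Mmp9*, *Mmp12* and *Mmp23* have no ratio for NM11 over Colon26 and are not drawn.

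Of 13 further MMP genes, 12 had a named probe, and 7 of these (*Mmp1a*, *Mmp7*, *Mmp15*, *Mmp20*, *Mmp21*, *Mmp24* and *Mmp25*) were well above background in no line. *Mmp1b*, a rodent counterpart of interstitial collagenase, followed the order of *Mmp3*. On the brighter of its 2 probes the signal was 5.47 ± 5.49 in Colon26 cells, below the detection call, 192.3 ± 19.7 in LuM1 cells and 77.5 ± 8.73 in NM11 cells. This probe was at least 7.28-fold higher in LuM1 and at least 2.93-fold higher in NM11 than Colon26 cells, and 2.48-fold higher in LuM1 than NM11 cells (log2 ratio 1.31, scanner error 0.22). With the normexp correction, it no longer passed 2-fold in NM11 over Colon26 or in LuM1 over NM11 cells. The dimmer probe read 5.80, 42.6 and 15.8 in the same order, and only LuM1 cells passed the detection call. It gave at least 1.61-fold for LuM1 over Colon26, at least 2.18-fold for LuM1 over NM11 and no ratio for NM11 over Colon26 cells. *Mmp8*, the collagenase of neutrophils, read 21.6 ± 6.18, below the detection call, 66.0 ± 7.91 and 58.6 ± 7.17 in the same order. That made it at least 2.50-fold higher in LuM1 and at least 2.22-fold higher in NM11 than Colon26 cells, neither of which passed 2-fold with the normexp correction, and the latter not with scaling to *Hprt* or the spike-in controls. *Mmp16*, another membrane-type MMP, was 605.3 ± 60.7 in LuM1 cells and not well above background in the other lines on 1 probe, at least 22.9-fold over Colon26 and at least 30.9-fold over NM11 cells, but its other probe was well above background in no line. *Mmp17* and *Mmp28* passed 2-fold in no pair. Of the 12, 5 were well above background in LuM1 or Colon26 cells, and 3 passed 2-fold upwards in LuM1 (12.9% of all genes). For NM11 over Colon26 cells the counts were 4 and 2 (8.17% of all genes), and for LuM1 over NM11 cells 5 and 2 (11.1%). The shares are over genes above background in at least 1 of both lines. None of the 12 was at least 2-fold lower, but only the 2 well above background in Colon26 cells, or the 4 in NM11 cells, could be counted so.

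In RefSeq's gene order, 10 MMP genes lie together on chromosome 9, in the order *Mmp13*, *Mmp12*, *Mmp1b*, *Mmp3*, *Mmp1a*, *Mmp10*, *Mmp8*, *Mmp27*, *Mmp20* and *Mmp7*, with 3 other genes between them. *Mmp27* had no named probe. Of the 9 others, *Mmp13*, *Mmp1b*, *Mmp3*, *Mmp10* and *Mmp8* were well above background in both sublines on their brightest probes. On these probes each was at least 2-fold higher there than in Colon26 cells, but the dimmer probe of *Mmp1b* did not reach this in either subline. *Mmp12*, *Mmp1a*, *Mmp20* and *Mmp7* were well above background in no line, although *Mmp12* and *Mmp1a* lie between genes that were. The other members that were higher in LuM1 than Colon26 cells lie elsewhere, *Mmp9* (bright in LuM1 cells alone) on chromosome 2, *Mmp2* on chromosome 8 and *Mmp19* on chromosome 10. *Mmp16*, higher in LuM1 cells on 1 of its 2 probes, is not among the 10 chromosome 9 genes either. Among the further MMP genes, AP-1 letters stood in the windows of *Mmp1a*, *Mmp1b* and *Mmp7*, so that 7 of the 18 MMP genes with a window held them, and 3 of these 7 (*Mmp12*, *Mmp1a* and *Mmp7*) were not well above background.

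**Figure D4:**
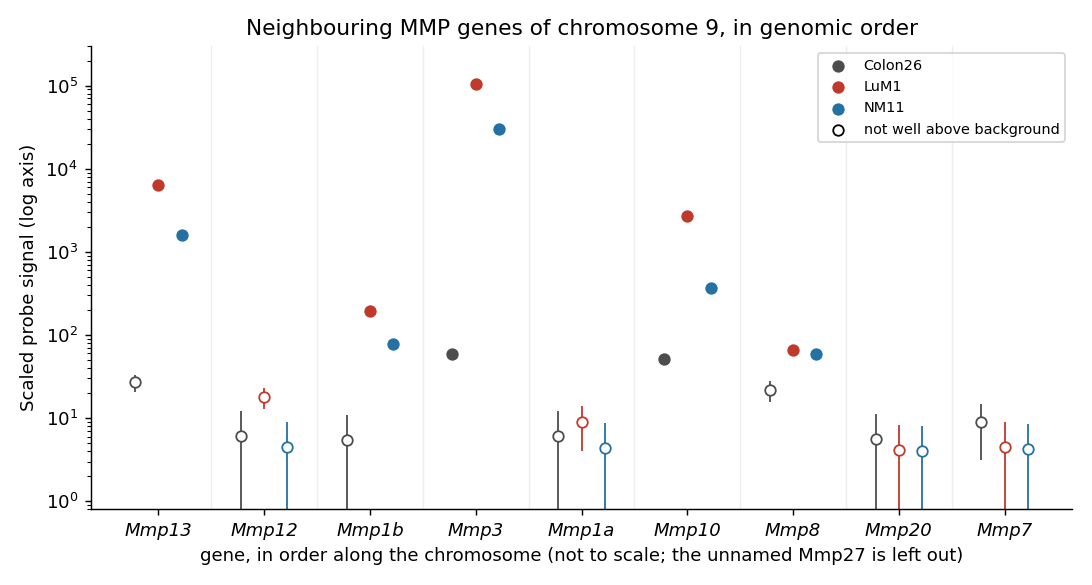
Scaled probe signal (vertical log axis, no unit) of 9 neighbouring MMP genes of chromosome 9, in genomic order but not to scale, in Colon26 (grey), LuM1 (red) and NM11 (blue) cells, 1 array each. Bars are the scanner software's error, and open points were not well above background. *Mmp1a* and *Mmp12*, not well above background in any line, lie between genes that were in the sublines, such as *Mmp3* at 103171 in LuM1. *Mmp20* and *Mmp7*, also not well above background in any line, stand side by side at the end.

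For *Mmp3*, the genes with the nearest pattern were sought among the 12245 genes that passed the detection call in every line, by the distance between their log2 ratios over Colon26. The nearest was *Cxcl1*, which encodes a chemokine that draws neutrophils, at a distance of 0.37. Its signal was 45.9 in Colon26, 102407 in LuM1 and 21436 in NM11 cells. The next were *Slpi*, which encodes a secreted inhibitor of leukocyte proteases, at 1.81, *Rhox5*, which encodes a homeobox protein, at 3.80, *Lcn2*, which encodes lipocalin-2, at 3.83 and *Gda*, which encodes guanine deaminase, at 4.29. *Rhox5* was higher in NM11 than LuM1 cells, so its order differed from that of *Mmp3*. Likeness over 3 arrays rests on 2 ratios per gene.

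The inhibitors did not share 1 direction. *Timp3*, which encodes an inhibitor bound to the matrix, read 32606 in Colon26, 32.8 in LuM1 and 29742 in NM11 cells, so that it was 993.3-fold lower in LuM1 than Colon26 cells and 906.1-fold lower than in NM11 cells. Its second probe gave at least 868.7-fold and at least 841.1-fold. *Timp1*, which encodes a soluble inhibitor that binds the proenzyme of gelatinase B, read 33767 ± 3377, 24826 ± 2483 and 67183 ± 6718 in the same order, 2.71-fold lower in LuM1 than NM11 cells (below 2-fold with scaling to *Hprt*). *Timp2*, whose product also takes part in the activation of gelatinase A, passed 2-fold in no pair on its brighter probe, while its dimmer probe was 2.15-fold lower in LuM1 than Colon26 and 2.20-fold lower than in NM11 cells. *Reck*, which encodes a membrane-anchored inhibitor, was highest in LuM1 cells, at 414.2 ± 41.8, 846.8 ± 84.8 and 255.9 ± 26.0, 2.04-fold over Colon26 (below 2-fold with the normexp correction) and 3.31-fold over NM11 cells. *Timp4* was well above background in no line. Of the 5 inhibitors, 1 was thus higher (12.9% of all genes) and 1 lower (11.7%) in LuM1 than Colon26 cells. Against NM11 cells, 1 was higher (11.1%) and 2 lower (8.5%) in LuM1 cells. None differed by 2-fold between NM11 and Colon26 cells. There *Timp1* stood at 1.99-fold and passed 2-fold under some scalings, among them the authors' processed values.

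Among 5 activators and inducers, the gene of urokinase, *Plau*, which turns plasminogen into plasmin, was higher in both sublines. It read 324.5 ± 33.0 in Colon26, 2537 ± 254 in LuM1 and 1427 ± 143 in NM11 cells, 7.82-fold higher in LuM1 and 4.40-fold higher in NM11 than Colon26 cells and 1.78-fold higher in LuM1 than NM11 cells. The gene of tissue plasminogen activator, *Plat*, read 175.8 ± 18.5, 394.8 ± 39.7 and 311.4 ± 31.4 and passed 2-fold only for LuM1 over Colon26 cells (2.25-fold, and not with the normexp correction). *Furin*, a proprotein convertase, and *Bsg*, which encodes the MMP inducer basigin, passed 2-fold in no pair. *Plg*, the plasminogen gene, was well above background in no line.

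All 13 AP-1, ETS and Runx factors of the list were well above background in at least 1 line. *Etv1*, an ETS factor, followed the order of *Mmp3*, at 1559 ± 156 in Colon26, 12115 ± 1212 in LuM1 and 3459 ± 346 in NM11 cells, 7.77-fold and 2.22-fold over Colon26 and 3.50-fold between the sublines (the 2.22-fold fell below 2-fold with scaling to *Hprt* or the spike-in controls). *Ets1* was 3.27-fold higher in LuM1 than Colon26 cells and 2.07-fold higher than in NM11 cells, and its second probe gave 3.83-fold and 2.05-fold. *Fos*, a subunit of AP-1, read 27.4 ± 6.38 in Colon26 cells, below the detection call, 203.1 ± 20.8 in LuM1 and 565.5 ± 56.7 in NM11 cells. It was thus at least 7.41-fold and at least 20.6-fold higher in the sublines, and it was highest in NM11 cells, unlike *Mmp3*, *Mmp10* and *Mmp13*. *Fosl1*, *Ets2* and *Etv5* were 2.10-fold, 2.28-fold and 2.18-fold lower in LuM1 than Colon26 cells, and none of these 3 passed 2-fold in the authors' processed values. They were also lower in LuM1 than NM11 cells, by 2.74-fold, 3.69-fold and 2.55-fold, and with scaling to *Hprt* neither *Fosl1*, *Etv5* nor *Fos* passed 2-fold between the sublines. Of the 13 factors, 3 were higher and 3 lower in LuM1 than Colon26 cells, beside 12.9% and 11.7% of all genes. Between the sublines, 2 were higher and 4, with *Fos*, lower in LuM1 cells, beside 11.1% and 8.5% of all genes. In NM11 over Colon26 cells, 2 were higher and none lower, beside 8.17% and 7.74%. The other 7 factors passed 2-fold in no pair, among them *Jun*, *Junb* and *Runx2*, but *Fosb* (log2 ratio -0.97, LuM1 over NM11) and *Jund* (-0.95, NM11 over Colon26) came close and passed it under some scalings.

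**Figure D5:**
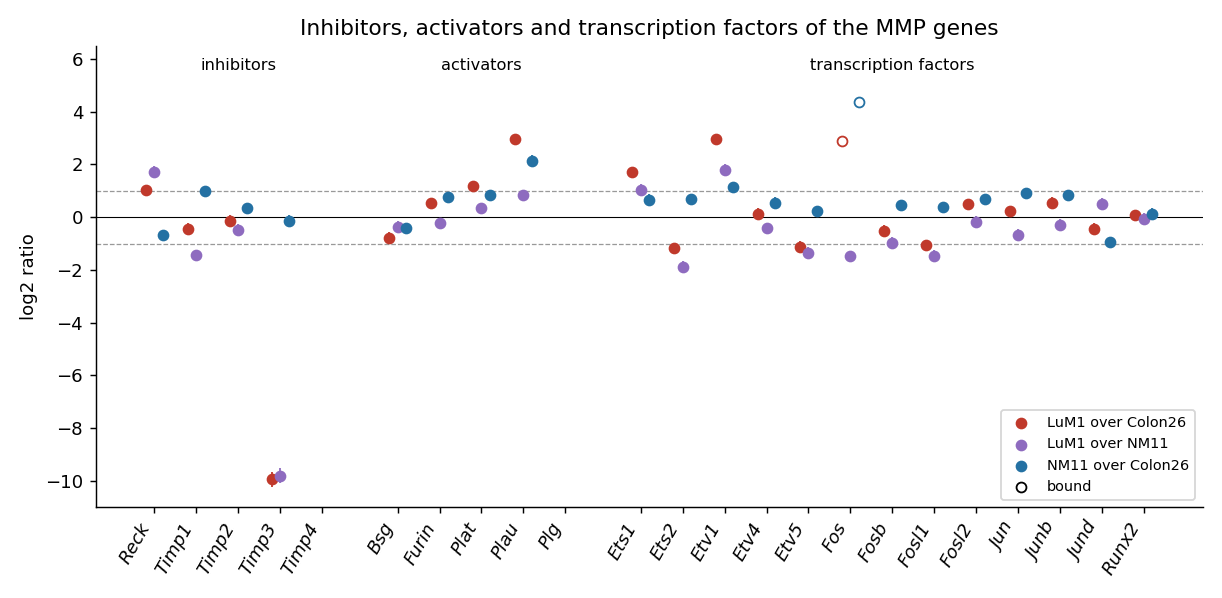
Log2 ratios (vertical axis) of inhibitors, activators and transcription factors of MMP genes, for LuM1 over Colon26 (red), LuM1 over NM11 (purple) and NM11 over Colon26 (blue), brightest probe of each gene. Bars are the scanner software's error, open points are lower bounds, dashed lines mark 2-fold, and genes without points were well above background in no line. *Timp3* stands at -9.96 and -9.82 for LuM1 over Colon26 and over NM11, and *Plau* and *Etv1* are the highest measured ratios of their groups.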

How the data were processed

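The samples were 1 array for each of Colon26, LuM1 and NM11 (Agilent SurePrint G3 Mouse GE 8x60K), and all 3 lay on 1 slide. The authors deposited the spot intensity of each array from Agilent Feature Extraction 11.5.1.1, background-subtracted and detrended but not scaled between arrays, with flags of 0 or 1 that mark outliers and spots above background. A second, processed intensity table deposited by the authors held the same values multiplied by a constant for each array (0.654, 0.829 and 0.706 for Colon26, LuM1 and NM11).

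Control spots and flagged outliers were left out, spots of 1 probe were averaged, and scaling used the 75th percentile over the spots of an array. Probes (56605) were named through RefSeq accessions (58.3% matched), and the brightest probe stood for a gene. Lists of other MMP genes, inhibitors, activators, transcription factors, matrix substrates and cell markers were described by counts past 2-fold, except that the counts over the matrix list and 1 of its genes are not reported here. With 1 array per line there was nothing to test, and precision is limited by the number of arrays. The members and lists were chosen with earlier results of these data known. Genes were named where they were members, where they belonged to these lists and differed at least 2-fold, and where they were among the 5 nearest to *Mmp3*. The promoter windows were read from RefSeq (GRCm38.p6). The array design names an older build, so the only coordinates given are those of the promoter windows.

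Alternatives were other scalings (none, median, *Hprt*, quantile, probes on all arrays, the authors' values), normexp with an offset of 50, looser detection or none, the mean over probes and a 4-fold threshold. Scaling to spike-in controls and to distinct probes was added after seeing the data. Python 3.11.15 (numpy 2.4.6, pandas 2.3.3, matplotlib 3.10.9) and R 4.3.3 with limma 3.58.1 were used.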

Additional observations from a re-analysis of the deposited data

How the results depend on the processing

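No count or ratio of the MMP genes that passed 2-fold changed direction under any of the alternatives run. Of the 6 family counts (higher and lower, 3 pairs of lines), the count in LuM1 over NM11 cells went from 4 to 2 (*Mmp9* and *Mmp10*) with a 4-fold threshold. That threshold was applied to the main scaling alone, and *Mmp3* and *Mmp13* exceeded 4-fold under some of the other scalings. The count in LuM1 over Colon26 cells was 8 in the authors' processed values (with *Mmp11* and *Mmp14*) and 7 with looser detection or none (with *Mmp12*). The count in LuM1 over NM11 cells was 5 in the authors' values and with scaling to *Hprt* or spike-in controls (with *Mmp14*) and with looser detection or none (with *Mmp12*). The count in NM11 over Colon26 cells was 6 with looser detection or none (with *Mmp9*). The median log2 ratio of all genes moved by 0.45 and 0.41 for LuM1 over Colon26 and over NM11 in the authors' values, by 0.59 for LuM1 over NM11 and -0.49 for NM11 over Colon26 with *Hprt*, and by 0.32 and -0.32 with the spike-in controls. It moved by up to 0.18 without scaling and by up to 0.16 with the 75th percentile over probes well above background on all 3 arrays. The log2 ratio of *Mmp3* in LuM1 over Colon26 cells ranged from 9.59 (normexp) to 11.23 (authors' values), and that of *Mmp9* in LuM1 over NM11 cells from 4.56 to 7.14. Ratios over a line at background were limited by the signal over background there, so their sizes rest on the background correction. No paired analysis was possible because each line had 1 array.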

Other observations

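Among the genes of proteins that MMPs cut or that surround them in the matrix, the 3 lines differed in both directions. On its only named probe, the gene of type I collagen's second chain, *Col1a2*, read 59896 in Colon26 cells, 49.6 in LuM1 cells and 85275 in NM11 cells. It was thus 1207-fold lower in LuM1 than Colon26 cells and 1719-fold lower than in NM11 cells. *Col1a1* was lower in LuM1 cells by far less, at 4918 ± 492, 2247 ± 225 and 6045 ± 605 (2.19-fold and 2.69-fold), and it fell short of 2-fold over Colon26 in the authors' processed values, with quantile normalization and with the 75th percentile over probes on all arrays, and over NM11 with scaling to *Hprt*. The type IV collagen genes of basement membranes were higher in LuM1 cells, *Col4a1* by 3.92-fold and 4.89-fold and *Col4a2* by 2.98-fold and 3.28-fold over Colon26 and NM11 cells.

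*Dcn*, the gene of the collagen-binding proteoglycan decorin, was not well above background in Colon26 cells (6.07 ± 6.10) and read 27503 ± 2750 in LuM1 and 9599 ± 960 in NM11 cells. It was thus at least 1041-fold and at least 363.5-fold higher in the sublines and 2.87-fold higher in LuM1 than NM11 cells, in the order of *Mmp3*. *Col3a1* was 3.98-fold higher in LuM1 and 9.04-fold higher in NM11 than Colon26 cells. *Fn1*, the fibronectin gene, was 2.40-fold higher in LuM1 than Colon26 cells and 1.80-fold higher than in NM11 cells on the brightest of its 3 probes. The other probes gave 3.44-fold and 4.24-fold over Colon26 and 2.48-fold and 2.90-fold over NM11 cells. *Tnc*, the tenascin-C gene, was well above background only in NM11 cells, at 201.2 ± 20.5. *Eln* and *Acan* were well above background in no line.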
